A study of Mus musculus with 24 samples.

Results

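Rab GTPases are small GTP-binding proteins that mark the membranes of the secretory and endocytic pathways. Their transcripts were followed in 3T3-L1 cells (NIH 3T3 L1 in the labels), a mouse fibroblast line that turns into fat-storing adipocytes in culture. The members were the genes whose symbol is Rab, a number and at most 2 further letters. Pseudogenes were left out, and so were Rab3ip and Rab5if, which have that form but are named as Rab-interacting. Of 57 members with a probe on the array, 42 were tested because 3 or more of the 24 arrays detected a probe for them (detection p under 0.05). In all, 9558 genes were tested. Total RNA was hybridised to Illumina beadchips, on which each probe reports the brightness of 1 transcript sequence. The course had 8 time points with 3 replicates each: day 0, labelled undifferentiated, days 2 and 4, labelled differentiating, and days 6, 8, 10, 14 and 18, labelled maturating. The labels name a medium with IBMX, insulin and dexamethasone for all days, day 0 included, and add a maturation medium with insulin from day 6. Time and medium changed together, with no culture in the samples used here that was kept out of these media. The labels do not say whether day 0 preceded the inducing medium, nor whether each replicate was a culture of its own, so p-values measure only the spread between these samples.

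A Rab protein cycles between an active GTP-bound form on membranes, where it recruits effectors such as tethers and motors, and an inactive GDP-bound form that GDI keeps soluble. Guanine nucleotide exchange factors (GEFs) switch it on, and GTPase-activating proteins (GAPs), most of them with a TBC domain, switch it off. In adipocytes the best studied task of the family is the traffic of GLUT4, the insulin-regulated glucose transporter, to the cell surface, in which the Rab GAP Tbc1d4 and its target Rab10 take part. Other members act in endosome sorting, secretion and lipid droplet biology.

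Values are log2 intensities after background correction and quantile normalization, with an offset that compresses differences near background, and adjusted p-values are limma's, over all 9558 genes. On this scale the dimmest detected probe of an array stood at 4.75 to 4.91, and arrays of 1 day had correlations of 0.982 to 0.996 over genes, which are not independent replicates. Arrays with the same replicate number deviated together across days, as given in the account of the processing. A fit with the replicate as a block is given for Rab genes where it bears on a value printed here. For single genes outside the family no block value was taken, so its absence there does not mean that the block changed nothing. The block also raised the share of all genes called, to 85.3% over the course. Replicate 1 lay farthest from the other arrays of its day on every day, at 0.307 to 0.350 (root mean square, log2). Replicate 2 of day 4 lay at 0.337, against 0.230 to 0.290 for replicate 2 on the other days. Without it 13 instead of 14 Rab genes were called for day 4 versus day 2, and 7 instead of 9 for day 6 versus day 4. Calls over all genes fell too. For day 4 versus day 2 they were 1686 higher and 1934 lower without it, against 1789 and 2169 with it. For day 6 versus day 4 they were 1331 and 1324, against 1463 and 1342. All 14 adipocyte markers tested were higher on day 18 than on day 0, and 12 of 14 preadipocyte and fibroblast markers were lower. The summed normalized intensity of the adipocyte markers was 9089.9, 32238, 74069, 95168, 96354, 91637, 89939.6 and 87799 on days 0, 2, 4, 6, 8, 10, 14 and 18. That of the preadipocyte and fibroblast markers was 77801, 23379.6, 8754, 13592, 23718, 28198, 31637 and 30865, so it was lowest on day 4 and partly returned. Of 8 endothelial markers none was detected on 3 arrays, and of 8 macrophage markers 5, Adgre1 and Ptprc among them, were detected on no array. The summed macrophage markers were lowest on day 4 too, at 57.8, with 165 on day 18, against 168 on day 0. Of 8 skeletal muscle markers Myod1, Myh1, Myh4 and Ckm were detected on no array, and the sum of all 8 was 338 on day 18, against 78.8 on day 0. The part of these cell type markers in the Rab results was not tested. In bulk RNA, fewer cells of a type and less RNA per cell cannot be told apart.

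Rab transcripts were more often lower than higher on later days when set against day 0. Over the whole course 32 of 42 members changed by the F test, 76.2%, beside 74.5% of all genes, and 35 did with the replicate block, beside 85.3%. The span between a member's highest and lowest day mean had a median of 0.84 (log2), beside 0.87 for all genes and 14 members (33.3%) spanned at least 1, beside 41.9% of all genes. Of the 32 that changed, 19 (59.4%) had their highest day mean on day 0, beside 32.4% of all genes that changed. The lowest day mean fell on day 4 for 9 of them (28.1%), beside 17% of all genes that changed. On day 18 versus day 0, 22 members were lower and 5 were higher. The backgrounds were 34% of all genes lower and 23.2% higher, and the median difference was -0.28 for the members and -0.08 for all genes. Unless stated, counts of members take the brightest probe of each gene. The 22 lower members include Rab7 and Rab8a, whose other probes were not lower. In a fit of all probes these gave 0.53 and 0.37 for Rab7 and 0.12 for Rab8a. Under median scaling 22 members were lower and 3 higher, beside 3733 and 1849 of all 9558 genes, whose median difference was then -0.17. With the replicate block 24 were lower and 5 higher, beside 3741 and 2582 of all genes, and 66.2% of all genes were called. Without these changes 3249 of all genes were lower and 2217 higher. The arrays of day 18 and day 0 did not overlap for 22 members that were lower and 5 that were higher, beside 61.1% of all genes in either direction. On the days between, set against day 0, lower members also outnumbered higher ones. On day 4 versus day 0, 19 members were lower, beside 31.2% of all genes, and 8 were higher, beside 28.9%. On day 6, 20 were lower, beside 33.1% of all genes, and 9 higher, beside 27.6%. On day 8, 20 were lower, beside 32.6% of all genes, and 6 higher, beside 24.9%. On day 10, 21 were lower, beside 32.4% of all genes, and 7 higher, beside 24.1%. On day 14, 21 were lower, beside 32.8% of all genes, and 5 higher, beside 23.3%. The members were chosen by name, and 37 of the 42 were detected on all 24 arrays. The other 5 (Rab7b, Rab36, Rab39b, Rab20 and Rab33a) passed the detection filter on part of the arrays, so that a member that passed only on the days when it is high had to differ.

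**Figure D1:**
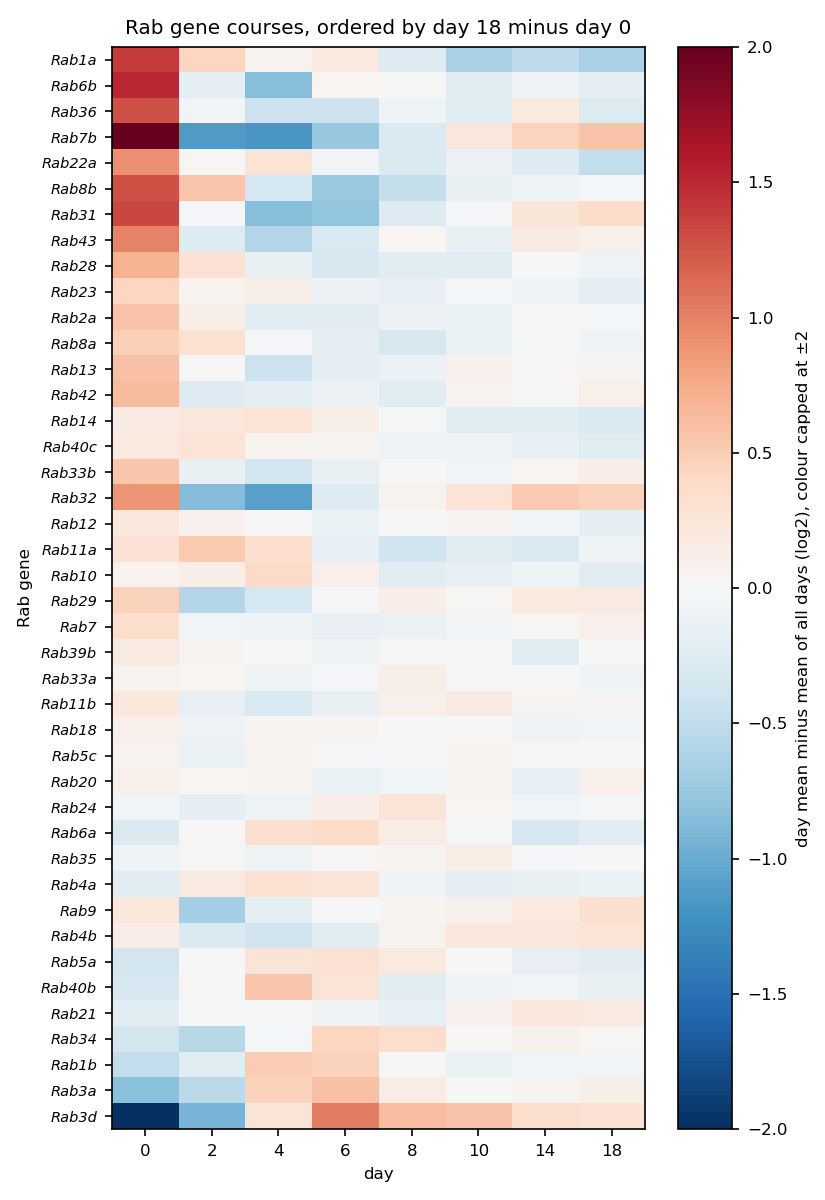
Heat map of the 42 Rab genes tested (rows, ordered by day 18 minus day 0) over the 8 days (columns); colour gives the day mean minus the gene's mean over all days in log2 units, capped at ±2. The 8 rows at the top, from Rab1a to Rab43, are red on day 0, and the rows at the bottom, Rab3a and Rab3d, are blue on day 0 and red on day 6.

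The first step had the most calls among neighbouring days. The comparisons with day 0 share its 3 arrays, and neighbouring steps share a day. On day 2 versus day 0, 19 members were lower, beside 26.5% of all genes, and 4 were higher, beside 25% of all genes, with a median difference of -0.21, beside 0.02 for all genes. The arrays of the 2 days did not overlap for 20 members that were lower and 4 that were higher, beside 57.8% of all genes in either direction. The 4 that rose were Rab3a, Rab3d, Rab4a and Rab5a, and the count of higher members was 2 without day 0 replicate 3 and 2 without day 2 replicate 3. With the replicate block, 7 members were higher and 21 lower, and 61.3% of all genes were called. On day 4 versus day 2, 9 members were lower, beside 22.7% of all genes, and 5 higher, beside 18.7%. With the block 11 were lower and 12 higher, and 53.3% of all genes were called. On day 6 versus day 4, 7 members were higher, beside 15.3% of all genes, and 2 lower, beside 14%. The block gave 9 higher and 5 lower there, and called 41.3% of all genes.

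Later steps had fewer calls. On day 8 versus day 6, 7 members were called, beside 13% of all genes, and 4 without day 6 replicate 3 or without day 8 replicate 3. The block called 13 members and 23.3% of all genes. On day 10 versus day 8, 1 member, Rab7b, was called, beside 3.95% of all genes, and 2 without day 10 replicate 1. The block called 5 members and 10.6% of all genes. None was called by limma on day 14 versus day 10 or on day 18 versus day 14, beside 2.16% and 0.481% of all genes, where 5 and 1 members had an unadjusted p under 0.05. The block called 2 members and 5.99% of all genes in the first of these, and 0 members and 1.04% of all genes in the second. On day 18 versus day 6, 8 members were higher, beside 18% of all genes, and 10 lower, beside 18.5%. Median scaling gave 5 higher and 10 lower there, beside 1477 and 1766 of all 9558 genes. The block gave 13 higher and 14 lower, beside 2187 and 2431, with 48.3% of all genes called.

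**Figure D2:**
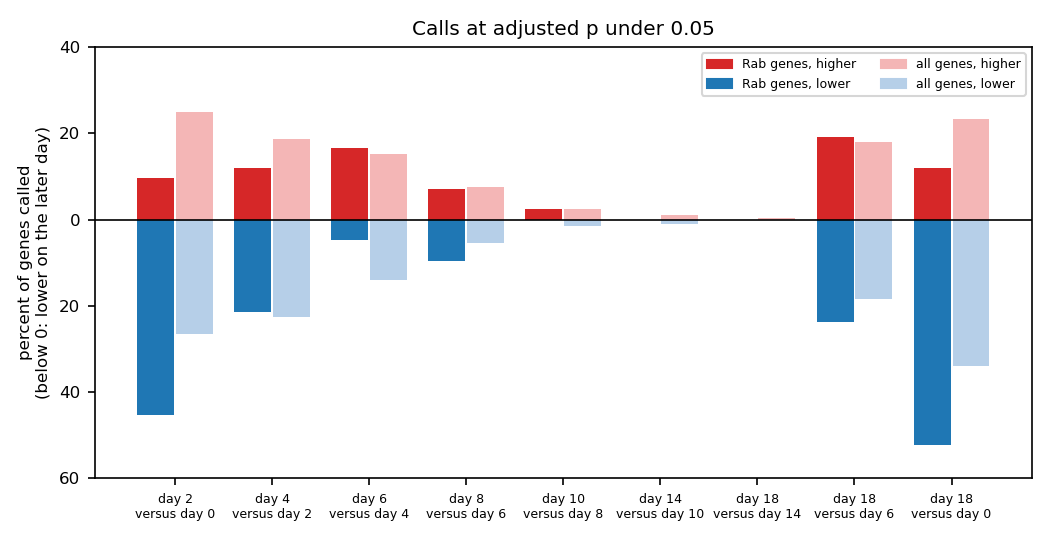
Percent of genes called at an adjusted p under 0.05, higher (above 0) or lower (below 0) on the later day of each comparison; saturated bars are the 42 Rab genes and pale bars all 9558 genes. For day 2 versus day 0 (45.2% of Rab genes lower) and day 18 versus day 0 (52.4%) the saturated bars reach further below 0 than the pale ones, and there are none for day 14 versus day 10 or day 18 versus day 14.

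The Rabs of regulated secretion ran against this trend. Rab3d and Rab3a, which bind secretory vesicles and are best known from exocrine cells and from synapses, were the members that rose most. Their promoter sequences, 250 bases before to 50 after the RefSeq start on build GRCm38.p6, are shown because they are the pair of paralogs that rose together. Rab3d (chr9:21907491-21918199, promoter chr9:21918134-21918433) lies on the minus strand and Rab3a (chr8:70754703-70758608, promoter chr8:70754453-70754752) on the plus strand. Capitals mark the motifs that a search of both strands found there. One is the GC box, GGGCGG, and the other is the box named for its letters, CCAAT.
Rab3d promoter: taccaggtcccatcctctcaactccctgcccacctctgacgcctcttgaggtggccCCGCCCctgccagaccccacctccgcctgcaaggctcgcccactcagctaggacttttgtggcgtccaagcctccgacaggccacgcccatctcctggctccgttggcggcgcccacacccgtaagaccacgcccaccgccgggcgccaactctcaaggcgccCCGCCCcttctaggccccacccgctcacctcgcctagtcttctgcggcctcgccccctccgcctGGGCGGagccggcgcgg
Rab3a promoter: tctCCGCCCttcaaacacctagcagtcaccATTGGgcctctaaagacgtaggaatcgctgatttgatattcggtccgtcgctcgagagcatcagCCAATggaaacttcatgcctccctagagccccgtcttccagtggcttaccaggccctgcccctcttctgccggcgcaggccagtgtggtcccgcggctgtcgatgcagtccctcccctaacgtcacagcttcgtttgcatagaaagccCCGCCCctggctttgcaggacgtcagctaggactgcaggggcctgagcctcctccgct
The Rab3d promoter held 3 GC boxes and no CCAAT box, and that of Rab3a held 2 of each. No matches overlapped one another, and a match of letters does not show a bound site.

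Rab3d read 6.77, 6.65 and 6.56 on the 3 arrays of day 0, 7.99, 7.87 and 7.87 on day 2, 9.18, 9.04 and 9.09 on day 4 and 9.93, 9.86 and 9.84 on day 6. It then read 9.54, 9.46 and 9.40 on day 8, 9.48, 9.47 and 9.30 on day 10, 9.26, 9.19 and 9.15 on day 14 and 9.21, 9.21 and 9.0 on day 18. Every later array lay above all 3 of day 0, and the arrays of days 0, 2, 4 and 6 formed 4 steps that did not overlap. The difference was 3.22 ± 0.08 (SE, adjusted p = 7.06e-18), or 9.31-fold, for day 6 versus day 0. For day 18 versus day 0 it was 2.48 ± 0.08 (SE, adjusted p = 5.89e-16), or 5.59-fold, and for day 18 versus day 6 it was -0.73 ± 0.08 (SE, adjusted p = 3.35e-07), so part of the rise was lost again. No other Rab gene had a larger rise in any of the 3 comparisons of day 2, day 6 and day 18 with day 0.

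Rab3a rose mostly between day 2 and day 4. It read 7.69, 7.51 and 7.47 on day 0, 7.75, 7.84 and 7.94 on day 2, 8.88, 8.79 and 8.86 on day 4 and 8.88, 8.99 and 9.04 on day 6. After that it read 8.38, 8.63 and 8.62 on day 8, 8.45, 8.25 and 8.49 on day 10, 8.44, 8.46 and 8.44 on day 14 and 8.58, 8.35 and 8.61 on day 18. All arrays from day 4 on were above those of days 0 and 2, and those of day 18 were below those of day 6. The difference was 1.00 ± 0.09 (SE, adjusted p = 3.14e-08) for day 4 versus day 2 and 1.41 ± 0.09 (SE, adjusted p = 3.87e-11), or 2.66-fold, for day 6 versus day 0. The earlier difference, day 2 versus day 0, was 0.29 ± 0.09 (SE, adjusted p = 0.0137) and was not called without day 0 replicate 3 or day 2 replicate 3 (adjusted p up to 0.0686). For day 18 versus day 6 Rab3a fell, by 0.46 ± 0.09 (SE, adjusted p = 5.93e-04). The day means of Rab3a and Rab3d correlated at 0.92 over the 8 days, which share their arrays. This likeness was not particular to the pair. Rab1b, a Rab of transport from the endoplasmic reticulum to the Golgi, also correlated with Rab3a at 0.92, and Rab34 with Rab3d at 0.83. The other relatives of Rab3a and Rab3d on this route were at background: Rab3b, Rab3c, Rab27b and Rab37 were detected on no array, and Rab27a, which docks secretory granules and lysosome-related organelles, on 1.

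**Figure D3:**
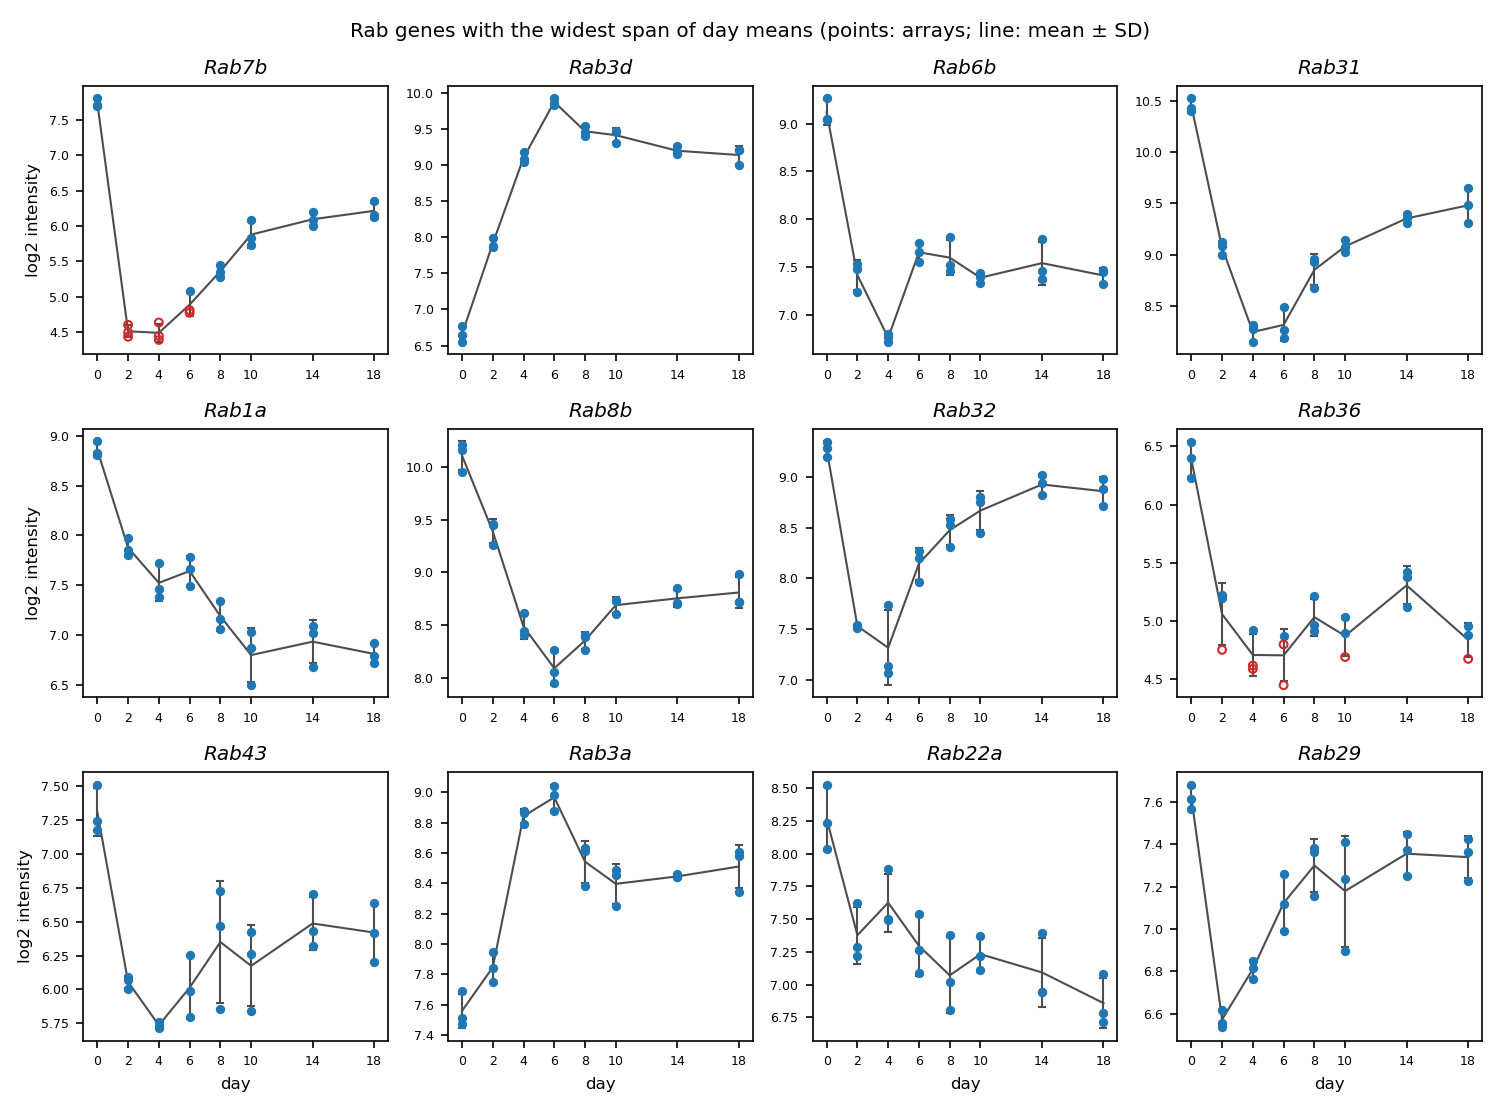
Log2 intensity (vertical axes, each with its own range) against day (horizontal axes) for the 12 Rab genes with the widest span of day means; filled blue points are arrays on which the probe was detected, open red points arrays on which it was not, and lines join day means ± SD. Rab3d and Rab3a climb to day 6, while the other 10 genes are highest on day 0.

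The Rabs that carry trans-Golgi and GLUT4 vesicle cargo to the surface were lower or not called on day 18 versus day 0. This holds for the brightest probe of each gene, and second probes of Rab8a and Rab10 differed, as given below. Slc2a4, the GLUT4 gene itself, was detected on no array of day 0 and averaged 4.54, 5.41, 8.21, 9.80, 9.74, 9.60, 9.76 and 9.75 on days 0, 2, 4, 6, 8, 10, 14 and 18, at least 31.4-fold higher on day 18 than on day 0 (adjusted p = 1.46e-18). Of the 4 members tested in this group, Rab8a, Rab8b and Rab13 were lower on day 18 than on day 0, beside 34% of all genes. Rab10 was not called. Rab8b, an exocytic Rab close to Rab8a, had the widest fall of the 4, and its promoter (chr9:66919656-66919955, minus strand) is shown for contrast with Rab3d, whose course ran opposite (r = -0.97 over the 8 day means).
Rab8b promoter: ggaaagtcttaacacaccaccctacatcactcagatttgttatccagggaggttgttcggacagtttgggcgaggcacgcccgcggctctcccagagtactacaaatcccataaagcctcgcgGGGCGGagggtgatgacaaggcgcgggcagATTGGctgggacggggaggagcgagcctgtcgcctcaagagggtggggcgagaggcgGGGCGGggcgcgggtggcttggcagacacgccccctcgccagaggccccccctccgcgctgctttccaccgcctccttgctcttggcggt
It held 2 GC boxes and 1 CCAAT box, in capitals as above.

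Rab8b (chr9:66843609-66919705) read 10.16, 10.20 and 9.95 on day 0, 9.46, 9.45 and 9.26 on day 2, 8.62, 8.44 and 8.40 on day 4 and 8.26, 8.06 and 7.95 on day 6. The later arrays read 8.39, 8.40 and 8.27 on day 8, 8.73, 8.74 and 8.60 on day 10, 8.85, 8.71 and 8.70 on day 14 and 8.98, 8.72 and 8.72 on day 18. The arrays fell in non-overlapping steps to day 6 and then came back by less than they had lost. The difference was -2.02 ± 0.10 (SE, adjusted p = 4.32e-13) for day 6 versus day 0, 4.04-fold lower, and 0.72 ± 0.10 (SE, adjusted p = 9.85e-06) for day 18 versus day 6. Both probes for Rab8b ran together (r = 0.998 over the day means).

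Rab8a, which directs secretory vesicles to the surface, read 10.86, 10.74 and 10.69 on day 18, against 11.32, 11.29 and 11.31 on day 0. All 3 arrays of day 18 lay below all 3 of day 0, a difference of -0.54 ± 0.08 (SE, adjusted p = 5.59e-06), but in a fit of all probes a second, dimmer Rab8a probe gave 0.12 (adjusted p = 0.321) and did not follow the first (r = 0.25). Rab13, known from cell junctions and from GLUT4 traffic in muscle cells, read 6.45, 6.08 and 6.20 on day 4 and 7.04, 6.56 and 6.58 on day 18, against 7.33, 7.09 and 7.35 on day 0. Both later days lay below day 0 and did not overlap with it. The difference was -1.02 ± 0.16 (SE, adjusted p = 1.17e-05) for day 4 and -0.53 ± 0.16 (SE, adjusted p = 0.00713) for day 18, each versus day 0, and the second probe gave -0.71 for day 18 versus day 0. The further step from day 2 to day 4, -0.42 ± 0.16 (SE, adjusted p = 0.0406), was not called without day 2 replicate 2, day 2 replicate 3, day 4 replicate 2 or day 4 replicate 3 (adjusted p up to 0.15), nor with no background correction (-0.18, adjusted p = 0.0683) or no detection filter (-0.42, adjusted p = 0.0642).

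Rab10, the Rab most firmly tied to GLUT4 insertion in adipocytes, read 6.67, 7.68 and 7.60 on day 6 and 6.84, 7.25 and 6.95 on day 18, against 6.91, 7.47 and 7.51 on day 0. The arrays of the 3 days overlapped, and replicate 1 was the lowest of its day on every day. The F test gave an adjusted p of 0.442, or 1.84e-04 with the replicate block, and day 18 versus day 0 gave -0.28 ± 0.28 (SE, adjusted p = 0.425), or 0.0232 with the block. The block also called it for day 4 versus day 0 (0.32, adjusted p = 0.0115) and for day 18 versus day 6 (-0.31, adjusted p = 0.0214). A second Rab10 probe gave 1.00 (adjusted p = 0.0415) for day 6 versus day 0, where the first gave 0.02 ± 0.28, so the probes disagreed. Rab14, which acts between endosomes and the trans-Golgi network and is likewise a target of Tbc1d4, read 10.81, 10.93 and 10.57 on day 18, against 11.18, 11.36 and 11.06 on day 6. The arrays of days 2, 4 and 6 overlapped with those of day 0 and the arrays of day 18 lay below both, with -0.43 ± 0.11 (SE, adjusted p = 0.00395) for day 18 versus day 6 and -0.47 ± 0.11 (SE, adjusted p = 0.00103) for day 18 versus day 0.

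The regulators named for this route are given with them, and calls of single genes from such lists were not tested by omission. Tbc1d4 had no probe in the table used here. Its relative Tbc1d1, a Rab GAP better known from muscle, averaged 6.11, 6.41, 6.23, 5.71, 5.85, 5.73, 5.82 and 5.78 on days 0, 2, 4, 6, 8, 10, 14 and 18. It fell on day 6 versus day 4, by 0.52 ± 0.13 (SE, adjusted p = 0.00517), and was -0.33 ± 0.13 (SE, adjusted p = 0.0409) for day 18 versus day 0. Of 28 genes tested from the list of GLUT4 vesicle proteins and their tethering and fusion machinery, 5 were higher and 11 lower on day 18 than on day 0, beside 23.2% and 34% of all genes. Sort1, the sorting receptor sortilin of GLUT4 vesicles, rose by 4.32 ± 0.08 (SE, adjusted p = 2.87e-19), to 12.56 ± 0.04 on day 18, against 8.24 ± 0.06 on day 0 (SD, n = 3 arrays each). Aspscr1, the GLUT4 tether TUG, rose by 0.53 ± 0.13 (SE, adjusted p = 0.00114), and Exoc8, a subunit of the exocyst that tethers vesicles at the plasma membrane, by 0.57 ± 0.09 (SE, adjusted p = 8.53e-06). The exocyst subunit Exoc4 fell by 1.29 ± 0.17 (SE, adjusted p = 1.05e-06), Stxbp4 (Synip, a syntaxin 4 partner) by 1.43 ± 0.13 (SE, adjusted p = 8.61e-09), and the small GTPase Rala, which binds the exocyst, by 0.58 ± 0.12 (SE, adjusted p = 3.79e-04).

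**Figure D4:**
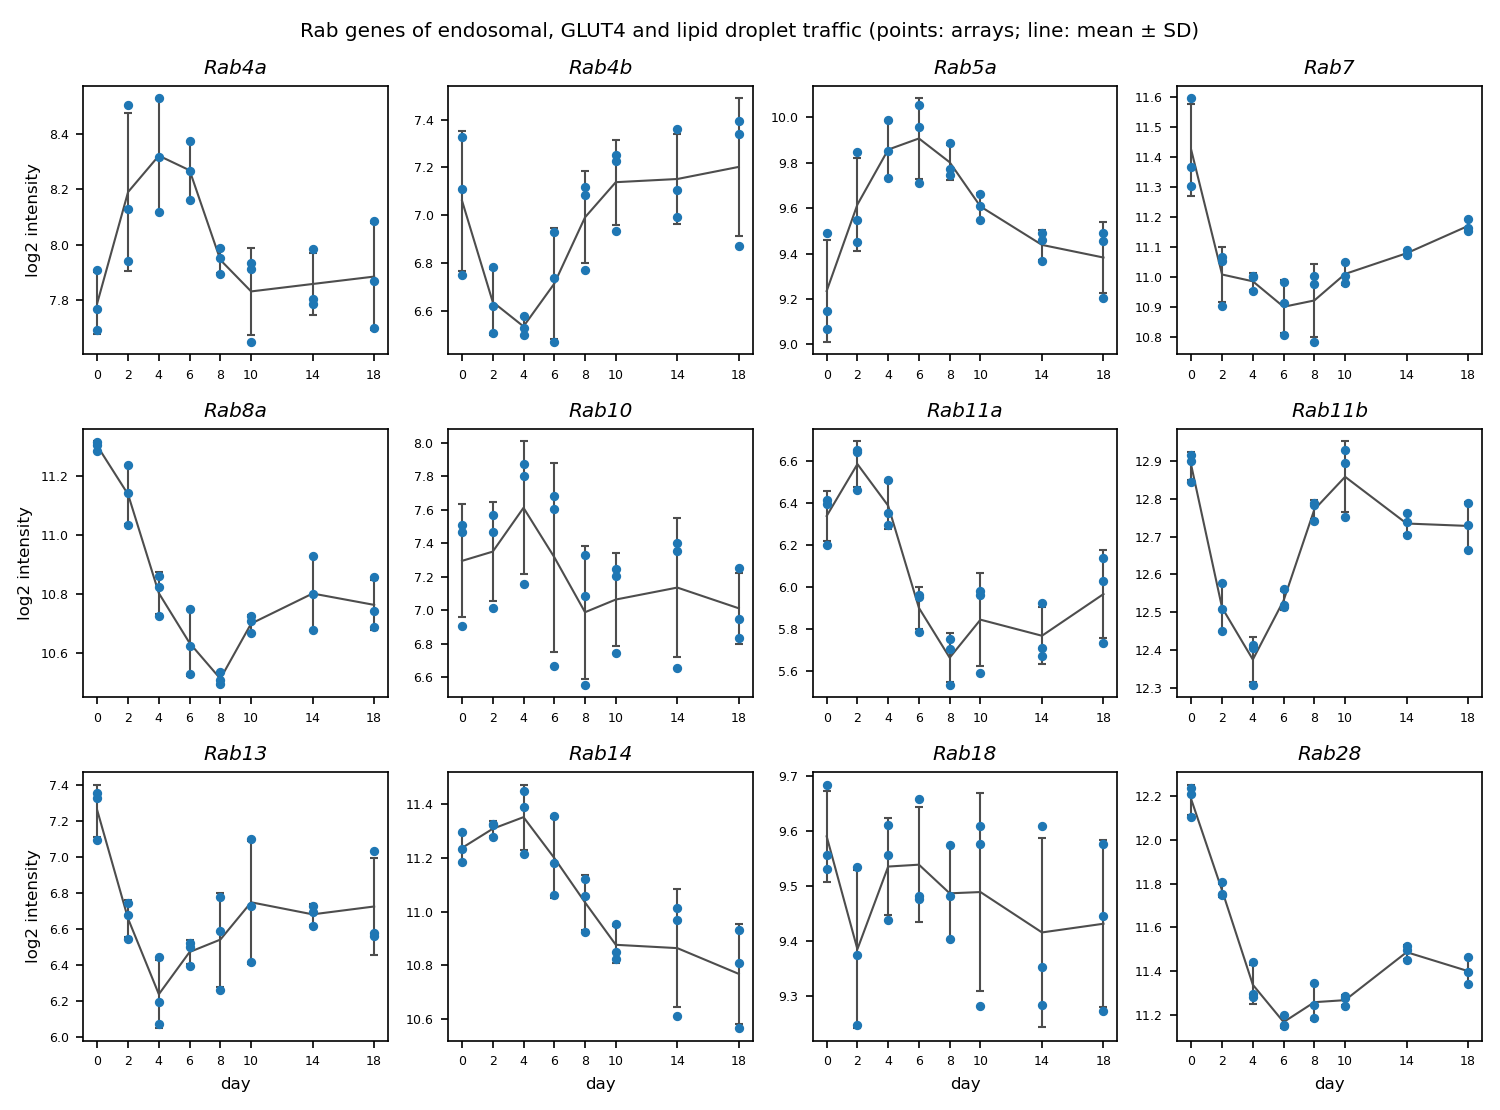
Log2 intensity (vertical axes, each with its own range) against day (horizontal axes) for 12 Rab genes of endosomal, GLUT4 and lipid droplet traffic; points are arrays and lines join day means ± SD. Rab4a and Rab5a are highest on days 4 and 6, Rab8a and Rab28 fall, and the arrays of Rab10 and Rab18 overlap between days.

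In the early endosome group, Rab31 fell and partly came back, Rab22a fell and did not come back, and Rab5a rose for a time. Rab31, also called Rab22b, which moves cargo between the trans-Golgi network and endosomes and has been linked to GLUT4 traffic in adipocytes, had the widest span of the 7. Its gene is at chr17:65651726-65772752 and its promoter at chr17:65772703-65773002 on the minus strand, shown because it holds fewer GC boxes than the promoters above.
Rab31 promoter: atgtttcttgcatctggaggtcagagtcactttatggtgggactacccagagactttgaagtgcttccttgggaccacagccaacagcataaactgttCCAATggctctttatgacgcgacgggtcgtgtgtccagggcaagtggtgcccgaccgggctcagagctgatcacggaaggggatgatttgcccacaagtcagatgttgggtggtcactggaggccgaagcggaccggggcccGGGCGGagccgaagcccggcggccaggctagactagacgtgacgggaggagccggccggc
It held 1 GC box and 1 CCAAT box. Rab31 read 10.43, 10.40 and 10.52 on day 0, 9.13, 9.0 and 9.08 on day 2, 8.28, 8.32 and 8.15 on day 4 and 8.50, 8.19 and 8.27 on day 6. It then read 8.93, 8.68 and 8.96 on day 8, 9.14, 9.03 and 9.07 on day 10, 9.40, 9.31 and 9.36 on day 14 and 9.65, 9.31 and 9.49 on day 18. Every array after day 0 lay below all 3 of day 0, and the arrays of day 18 lay above all of days 4 and 6. Day 4 versus day 0 gave -2.20 ± 0.10 (SE, adjusted p = 5.46e-14), 4.6-fold lower. Day 18 versus day 6 gave 1.16 ± 0.10 (SE, adjusted p = 9.03e-09), 2.24-fold higher, and day 18 versus day 0 still -0.97 ± 0.10 (SE, adjusted p = 2.89e-08). The summed preadipocyte and fibroblast markers were also lowest on day 4, and their part in this course was not tested.

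Rab5a, the Rab that drives early endosome fusion, moved the other way. It read 9.49, 9.07 and 9.15 on day 0, 10.05, 9.71 and 9.96 on day 6 and 9.49, 9.20 and 9.45 on day 18. The day 6 arrays lay above all of day 0, and those of day 18 overlapped with day 0. Day 6 versus day 0 gave 0.67 ± 0.12 (SE, adjusted p = 6.52e-05) and day 18 versus day 6 gave -0.52 ± 0.12 (SE, adjusted p = 0.00184), and both probes showed it (r = 0.95). Its rise by day 2, 0.38 ± 0.12 (SE, adjusted p = 0.0124), was lost without day 0 replicate 2, day 0 replicate 3 or day 2 replicate 1 (adjusted p up to 0.0923). Rab22a, which acts in recycling from early endosomes, had day means of 8.26, 7.38, 7.62, 7.30, 7.07, 7.23, 7.09 and 6.86 on days 0, 2, 4, 6, 8, 10, 14 and 18, the highest on day 0 and the lowest on day 18. It was -1.41 ± 0.18 (SE, adjusted p = 7.81e-07) for day 18 versus day 0. Rab22a was not called for day 18 versus day 6, adjusted p = 0.0607, or 3.20e-05 with the replicate block. In that comparison its second probe gave -0.48 (adjusted p = 0.0446) in a fit of all probes. The mean of its passed probes gave -0.46 (adjusted p = 0.0451). Rab21, which takes part in integrin endocytosis, was 0.40 ± 0.11 (SE, adjusted p = 0.00299) for day 18 versus day 0, and 0.18 under median scaling, where it was not called (adjusted p = 0.131). Rab24, linked to autophagy, spanned 0.46 with its highest mean on day 8, and was 0.19 ± 0.07 (SE, adjusted p = 0.0222) for day 6 versus day 0, not called without day 0 replicate 1 or day 6 replicate 3 (adjusted p up to 0.109). It was not called under median scaling (0.11, adjusted p = 0.298) or with the mean of its probes (0.14, adjusted p = 0.162) either, and its other 2 probes gave 0.07 and 0.16, neither called. Rab5c and Rab20 did not pass the F test (adjusted p = 0.989 and 0.773). With the replicate block Rab5c was called at -0.21, adjusted p = 0.0299 for day 2 versus day 0 and at 0.20, adjusted p = 0.038 for day 4 versus day 2.

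Among the recycling Rabs the 2 Rab4 paralogs, which act in fast recycling to the surface, ran in opposite directions. Rab4a read 7.69, 7.77 and 7.91 on day 0, 8.53, 8.12 and 8.32 on day 4 and 7.70, 7.87 and 8.09 on day 18, while Rab4b read 6.75, 7.11 and 7.33 on day 0, 6.53, 6.58 and 6.50 on day 4 and 6.87, 7.40 and 7.34 on day 18. For Rab4a the arrays of day 4 lay above those of day 0, and for Rab4b below them, and for both the arrays of day 18 overlapped with those of day 0. Day 4 versus day 0 gave 0.53 ± 0.13 (SE, adjusted p = 0.0018) for Rab4a and -0.53 ± 0.16 (SE, adjusted p = 0.00842) for Rab4b. Their day means correlated at -0.95 over the 8 days. Day 18 versus day 6 gave -0.39 ± 0.13 (SE, adjusted p = 0.0298) for Rab4a and 0.49 ± 0.16 (SE, adjusted p = 0.023) for Rab4b. The Rab4a call was lost without day 6 replicate 1, day 6 replicate 3, day 18 replicate 1 or day 18 replicate 2 (adjusted p up to 0.142) and the Rab4b call without day 6 replicate 1, day 18 replicate 2 or day 18 replicate 3 (adjusted p up to 0.127). For day 2 versus day 0, 0.40 ± 0.13 (SE) for Rab4a was not called without day 0 replicate 1 or day 2 replicate 3 (adjusted p up to 0.14), and -0.42 ± 0.16 for Rab4b was not called without day 0 replicate 2, day 0 replicate 3, day 2 replicate 1 or day 2 replicate 2 (adjusted p up to 0.188) or with no detection filter (-0.42, adjusted p = 0.0557).

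Rab11a, which marks the recycling endosome, read 6.20, 6.42 and 6.40 on day 0, 6.46, 6.65 and 6.64 on day 2, 5.78, 5.95 and 5.96 on day 6 and 5.73, 6.03 and 6.14 on day 18. The arrays of day 6 lay below those of days 0 and 2. It fell between day 4 and day 6, by 0.49 ± 0.12 (SE, adjusted p = 0.00379), and was -0.37 ± 0.12 (SE, adjusted p = 0.0118) for day 18 versus day 0, not called without day 18 replicate 1 (adjusted p = 0.0903). Rab11b, its paralog, had its lowest day mean on day 4, 12.37 ± 0.06, against 12.89 ± 0.04 on day 0 (SD, n = 3), a difference of -0.51 ± 0.07 (SE, adjusted p = 7.53e-07). It then rose by 0.24 ± 0.07 (SE, adjusted p = 0.0167) on day 8 versus day 6, so the paralogs bottomed out on different days. For day 18 versus day 0 Rab11b was -0.16 ± 0.07 (SE, adjusted p = 0.0427), not called in 6 of 24 omissions of 1 array (adjusted p up to 0.156, without day 18 replicate 3), under median scaling (-0.13, adjusted p = 0.219), in the authors' normalized table (-0.14, adjusted p = 0.065) or with the probe of lowest F p per gene (adjusted p = 0.0515). Rab35, which acts in a further fast recycling route, did not pass the F test (adjusted p = 0.169), with day means between 9.56 and 9.81.

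Of the 6 members of late endosomes, lysosomes and retrograde transport, 4 changed (Rab7, Rab7b, Rab28 and Rab42), beside 74.5% of all genes. The chosen probe of each was lower on day 18 than on day 0, beside 34% of all genes. Rab7b (chr1:131688681-131715443), which returns cargo from late endosomes to the trans-Golgi network, had the widest span of day means as measured, but its lowest days were not above background. Its place before Rab3d, whose span was 9.31-fold, rests on those undetected days and is not kept by the bound given below. Rab7b read 7.81, 7.72 and 7.70 on day 0, 4.49, 4.43 and 4.60 on day 2, 4.44, 4.63 and 4.38 on day 4 and 5.08, 4.77 and 4.81 on day 6. Then it read 5.28, 5.35 and 5.45 on day 8, 6.08, 5.83 and 5.72 on day 10, 6.20, 6.00 and 6.08 on day 14 and 6.35, 6.16 and 6.13 on day 18. The probe was detected on no array of days 2 and 4 and on 1 of day 6, and on all arrays of the other days. Day 2 versus day 0 was therefore at least 7.58-fold lower (adjusted p = 1.48e-15), with means of 4.51 ± 0.09 on day 2 and 7.74 ± 0.06 on day 0 (SD, n = 3). From day 6 on it recovered in part, with 1.33 ± 0.10 (SE, adjusted p = 4.32e-09), 2.51-fold higher on day 18 than on day 6, and still -1.53 ± 0.10 (SE, adjusted p = 9.62e-11) versus day 0. Its step on day 10 versus day 8, 0.52 ± 0.10 (SE, adjusted p = 0.00728), was called as well.

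Rab28, an atypical Rab linked to cilia and endosomes, read 12.11, 12.23 and 12.21 on day 0, 11.20, 11.15 and 11.15 on day 6 and 11.46, 11.34 and 11.39 on day 18. The 3 days did not overlap, day 6 versus day 0 gave -1.01 ± 0.07 (SE, adjusted p = 2.96e-11), and both probes ran together (r = 0.99). Its day means followed those of Rab8b (r = 0.98). Rab7, which takes late endosomes to lysosomes, read 10.81, 10.91 and 10.98 on day 6, against 11.37, 11.59 and 11.30 on day 0. The arrays of the 2 days did not overlap, and the difference was -0.52 ± 0.08 (SE, adjusted p = 9.88e-06). The other 2 Rab7 probes gave 0.60 and 0.50 for the same comparison and ran against the chosen one (r = -0.72 and -0.65), so no direction is given for Rab7. The call of the chosen probe for day 18 versus day 0, -0.25 ± 0.08 (SE, adjusted p = 0.0113), was lost without day 0 replicate 2 (adjusted p = 0.096) and under median scaling (-0.21, adjusted p = 0.0842). Rab42, whose 2 probes ran together (r = 0.96), was -0.52 ± 0.15 (SE, adjusted p = 0.00466) for day 18 versus day 0. Rab9, which retrieves mannose 6-phosphate receptors, did not pass the F test (adjusted p = 0.747). Its replicate 1 was the lowest array of every day, and with the replicate block the F test gave 1.87e-06. Day 2 versus day 0 was -0.89 ± 0.55 (SE), adjusted p = 0.192, or 7.05e-07 with the block, and the second Rab9 probe gave -0.58 (adjusted p = 0.00164). Rab12 did not pass the F test either (adjusted p = 0.653), though day 18 versus day 0, -0.39 ± 0.20 (SE), had an adjusted p of 0.0039 with the block.

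Of the 11 members of the early secretory pathway, 6 were lower and 2 higher on day 18 than on day 0, beside 34% and 23.2% of all genes. The paralogs Rab1a and Rab1b, which both drive transport from the endoplasmic reticulum to the Golgi, were on opposite sides. Rab1a (chr11:20201412-20226856) read 8.83, 8.95 and 8.81 on day 0, 7.38, 7.47 and 7.73 on day 4, 6.87, 6.50 and 7.03 on day 10 and 6.92, 6.79 and 6.72 on day 18. Rab1b (chr19:5099207-5106996) read 9.26, 8.89 and 9.37 on day 0, 10.25, 9.96 and 10.27 on day 4, 9.60, 9.33 and 9.64 on day 10 and 9.52, 9.43 and 9.88 on day 18. All arrays after day 0 were below day 0 for Rab1a, and those of day 4 were above day 0 for Rab1b. Day 18 versus day 0 was -2.05 ± 0.13 (SE, adjusted p = 4.66e-11) for Rab1a, 4.14-fold lower, and it fell again between day 6 and day 18, by 0.83 ± 0.13 (SE, adjusted p = 4.68e-05). Its step on day 4 versus day 2 was not called in 5 of 24 omissions of 1 array (adjusted p up to 0.152, without day 4 replicate 1) or with no detection filter (-0.35, adjusted p = 0.0591). For Rab1b, day 6 versus day 0 was 0.95 ± 0.15 (SE, adjusted p = 9.67e-06) and day 18 versus day 6 was -0.51 ± 0.15 (SE, adjusted p = 0.00966), not called without day 6 replicate 3 or day 18 replicate 2 (adjusted p up to 0.0662). Its difference of day 18 from day 0, 0.44 ± 0.15 (SE, adjusted p = 0.0141), was lost under median scaling, with the mean of its probes and also without day 0 replicate 2 or day 18 replicate 3 (adjusted p up to 0.106). A second Rab1b probe followed the chosen one (r = 0.93) and a further, dim one did so weakly (r = 0.35).

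Rab6b, a Golgi Rab known mostly from neurons, read 9.05, 9.04 and 9.27 on day 0, 7.53, 7.24 and 7.48 on day 2, 6.77, 6.72 and 6.80 on day 4, 7.66, 7.55 and 7.75 on day 6 and 7.32, 7.45 and 7.47 on day 18. It fell in 2 steps without overlap and rose between day 4 and day 6. The arrays of day 18 lay a little below those of day 6 and far below those of day 0, with an adjusted p of 0.105 for day 18 versus day 6, or 0.0319 with the block. The differences were -2.36 ± 0.11 (SE, adjusted p = 2.21e-13) for day 4 versus day 0, 5.12-fold lower, and 0.89 ± 0.11 (SE, adjusted p = 3.49e-06) for day 6 versus day 4. Rab6a, the general Golgi paralog, missed the F test (adjusted p = 0.057, or 2.97e-06 with the block), and its 3 probes disagreed. The chosen probe gave 0.65 ± 0.23 (SE, adjusted p = 0.0208) for day 6 versus day 0, not called without day 0 replicate 2, day 0 replicate 3, day 6 replicate 1 or day 6 replicate 2 (adjusted p up to 0.0981) nor under median scaling (0.47, adjusted p = 0.131). The other probes gave -0.52 and -0.48, so no direction is given.

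Rab36 and Rab43, both Golgi Rabs, fell early. Rab36 read 4.44, 4.80 and 4.86 on day 6 and 4.95, 4.88 and 4.67 on day 18, against 6.54, 6.23 and 6.40 on day 0, and was detected on 1 array of day 6 and 2 of day 18. All of these lay far below day 0, and day 18 versus day 0 gave -1.56 ± 0.15 (SE, adjusted p = 1.47e-08). Rab43 read 7.51, 7.17 and 7.24 on day 0, 5.72, 5.73 and 5.76 on day 4 and 6.20, 6.42 and 6.64 on day 18, without overlap between the 3 days. Day 4 versus day 0 was -1.57 ± 0.19 (SE, adjusted p = 2.75e-07) and day 18 versus day 0 -0.89 ± 0.19 (SE, adjusted p = 3.43e-04). Rab33b, a Golgi Rab that also binds the autophagy protein Atg16l1, had the course most like that of Rab43 (r = 0.99), and was -0.43 ± 0.12 (SE, adjusted p = 0.00392) for day 18 versus day 0. Rab2a, which acts at the Golgi, was -0.62 ± 0.08 (SE, adjusted p = 1.09e-06) in the same comparison. Rab34, known from the Golgi and from cilia, rose to day 6, by 0.80 ± 0.11 (SE, adjusted p = 3.69e-06) versus day 0, and was -0.39 ± 0.11 (SE, adjusted p = 0.0102) for day 18 versus day 6, not called with the mean of its probes (-0.36, adjusted p = 0.0753). Rab33a and Rab39b, both near background, did not pass the F test (adjusted p = 0.694 and 0.858).

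The remaining members act on lysosome-related organelles, mitochondria, lipid droplets and cilia. Rab32 (chr10:10545039-10558207), an anchor of protein kinase A at mitochondria that also serves melanosome formation, read 9.35, 9.29 and 9.20 on day 0, 7.53, 7.54 and 7.51 on day 2, 7.07, 7.74 and 7.14 on day 4, 8.21, 8.27 and 7.97 on day 6 and 8.99, 8.89 and 8.71 on day 18. Replicate 2 of day 4 stood above the other arrays of its day, and the arrays of day 18 lay above those of day 6 and below those of day 0. Day 2 versus day 0 was -1.75 ± 0.14 (SE, adjusted p = 1.96e-09), 3.36-fold lower, and day 18 versus day 6 0.72 ± 0.14 (SE, adjusted p = 4.40e-04). Day 4 versus day 2, -0.21 ± 0.14 (SE, adjusted p = 0.258), was -0.43 (adjusted p = 0.00798) without day 4 replicate 2. By day 18 the difference from day 0 had shrunk to -0.42 ± 0.14 (SE, adjusted p = 0.0167), not called without day 0 replicate 1 or day 18 replicate 3 (adjusted p up to 0.079). Rab29, which recruits the kinase Lrrk2 to the trans-Golgi network and lysosomes, took a like course (r = 0.94), with -1.05 ± 0.11 (SE, adjusted p = 5.42e-08) for day 2 versus day 0. For day 18 versus day 0 Rab29 was -0.28 ± 0.11 (SE, adjusted p = 0.0303), lost without day 0 replicate 1, day 0 replicate 3, day 18 replicate 1 or day 18 replicate 2 (adjusted p up to 0.121).

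Rab18, a Rab of lipid droplets and the endoplasmic reticulum, read 9.45, 9.27 and 9.58 on day 18, against 9.68, 9.56 and 9.53 on day 0. The arrays of all 8 days lay between 9.25 and 9.68, with overlap between the days. The F test gave an adjusted p of 0.64, and day 18 versus day 0 gave -0.16 ± 0.11 (SE, adjusted p = 0.236), with -0.31 (adjusted p = 0.0238) under median scaling. Its span of day means, 0.20, was the narrowest of the 42 members. Of the rest, Rab23, a regulator of Hedgehog signalling at cilia, was -0.62 ± 0.13 (SE, adjusted p = 4.51e-04) for day 18 versus day 0. Rab40c, an adaptor of a ubiquitin ligase, was -0.44 ± 0.07 (SE, adjusted p = 3.93e-05) in that comparison. Its paralog Rab40b was highest on day 4, 5.93 ± 0.16, against 5.04 ± 0.23 on day 0 (SD, n = 3), a difference of 0.90 ± 0.18 (SE, adjusted p = 1.56e-04), and was not called for day 18 versus day 0.

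**Figure D5:**
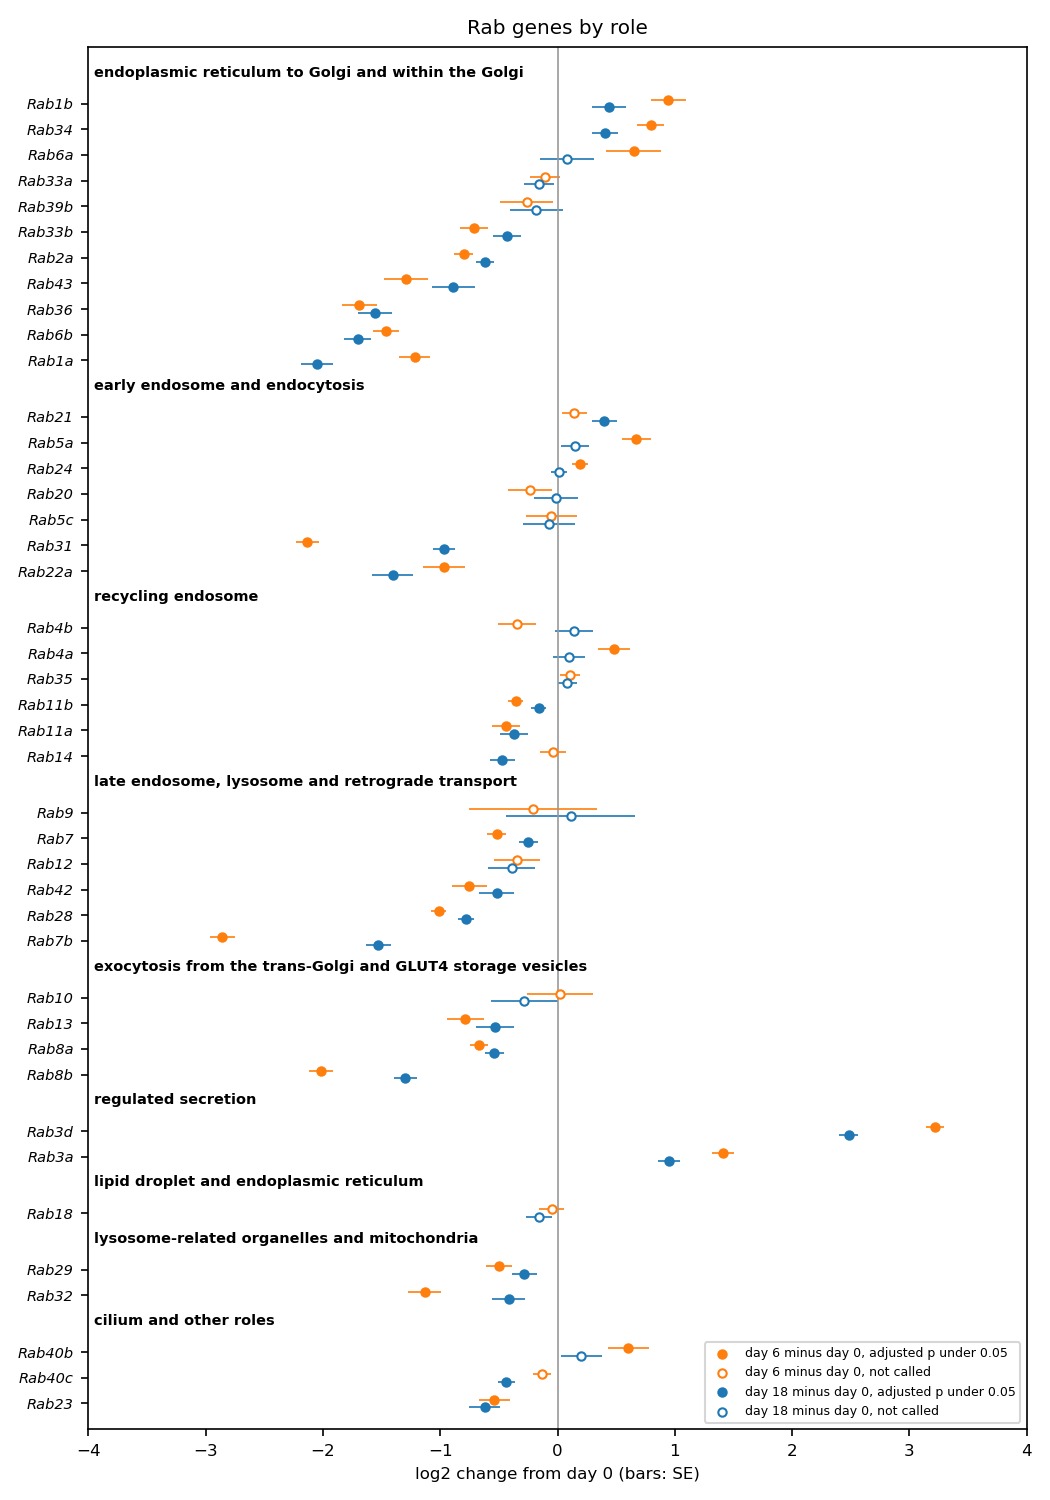
Log2 change from day 0 (horizontal axis; bars are SE) for each of the 42 Rab genes, grouped by role (vertical axis), with day 6 minus day 0 in orange and day 18 minus day 0 in blue; filled points have an adjusted p under 0.05. Rab3d lies farthest to the right and Rab7b farthest to the left, and the Rab8b, Rab31 and Rab7b points of day 18 lie nearer to 0 than those of day 6.

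The other 15 members with a probe did not reach the detection filter and have no fold change. Besides Rab3b, Rab3c, Rab27a, Rab27b and Rab37 they were Rab2b, Rab9b, Rab15, Rab17, Rab19, Rab25, Rab30, Rab38, Rab39 and Rab44. Rab17, Rab27a and Rab30 were detected on 1 array each and the others on none. Rab17 and Rab25 are known from epithelial cells and Rab38 from melanosomes. The annotation table names Rab26 and Rab5b without a probe in the table used here.

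The proteins that load, activate, switch off and read out Rabs were taken from lists, and each list is given by its counts. Calls of single genes from these lists were not tested by omission or in other settings. The medians stand beside 0.02 for day 2 versus day 0 and -0.08 for day 18 versus day 0 over all genes, whose shares called are given above. Of 11 genes tested for the delivery and recycling of Rabs to membranes, 2 were higher and 4 lower on day 2 than on day 0, with a median difference of -0.01. On day 18 versus day 0 it was 1 and 1, with a median of -0.02. Rabggtb, a subunit of the transferase that attaches the lipid anchor to Rabs, rose to 11.71 ± 0.06 on day 2, against 10.48 ± 0.16 on day 0, by 1.24 ± 0.10 (SE, adjusted p = 2.21e-09). It fell again by day 6, by 0.85 ± 0.10 (SE, adjusted p = 1.80e-06) versus day 4. Rabac1, the prenylated Rab acceptor, was -0.66 ± 0.11 (SE, adjusted p = 4e-05) for day 2 and 0.44 ± 0.11 (SE, adjusted p = 0.002) for day 18, each versus day 0. Gdi2, which keeps GDP-bound Rabs soluble, did not pass the F test (adjusted p = 0.553). Its arrays spread widely within a day (SD 0.24 to 0.58), and no block value was taken for it.

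Of 40 Rab GEFs and their subunits tested, 3 were higher and 12 lower on day 2, and 8 were higher and 15 lower on day 18, each versus day 0, with medians of -0.06 and -0.11. Rab3il1, an exchange factor related to rabin8, fell by 1.90 ± 0.14 (SE, adjusted p = 3.34e-10) on day 18 versus day 0. The Rab5 exchange factors Rin1 and Rin3 fell as well in that comparison, by 1.12 ± 0.11 (SE, adjusted p = 2.50e-08) and 1.17 ± 0.13 (SE, adjusted p = 1.43e-07). Rin1 then moved opposite to Rin3 between day 6 and day 18, with 1.01 ± 0.11 (SE, adjusted p = 3.42e-07) against -1.27 ± 0.13 (SE, adjusted p = 1.57e-07). Among the DENN domain exchange factors, Dennd2d was near background on day 0 (mean 4.71, detected on 1 array). Dennd2c was near it on day 18 (mean 4.87, detected on 2 arrays). Between these days, Dennd2c fell by 1.70 ± 0.11 (SE, adjusted p = 2.57e-11) and Dennd2d rose by 1.98 ± 0.30 (SE, adjusted p = 8.71e-06) on day 18 versus day 0. The TRAPP subunits Trappc2 and Trappc6a, parts of the tether that activates Rab1, rose by 1.01 ± 0.18 (SE, adjusted p = 7.34e-05) and 0.66 ± 0.17 (SE, adjusted p = 0.00198).

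Of 29 TBC domain GAPs tested, 3 were higher and 7 lower on day 2, and 4 were higher and 10 lower on day 18, each versus day 0, with medians of -0.10 and -0.19. Tbc1d2, a GAP for Rab7, rose by 1.92 ± 0.07 (SE, adjusted p = 8.80e-15) and Tbc1d20, a GAP for Rab1, by 1.18 ± 0.47 (SE, adjusted p = 0.0358) on day 18 versus day 0. Tbc1d13, a GAP for Rab35 that has been studied in GLUT4 traffic, rose by 0.81 ± 0.09 (SE, adjusted p = 1.60e-07). Grtp1 was detected on no array of day 0 and was at least 2.89-fold higher on day 18 (adjusted p = 6.76e-04). The widest falls were those of Tbc1d2b, by 1.48 ± 0.07 (SE, adjusted p = 2.93e-13), and Tbc1d10a, by 0.99 ± 0.14 (SE, adjusted p = 3.82e-06). Usp6nl, a GAP for Rab5, fell by 0.87 ± 0.16 (SE, adjusted p = 9.80e-05) and Rabgap1 by 0.74 ± 0.09 (SE, adjusted p = 2.55e-07).

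Of 42 Rab effectors tested, 6 were higher and 16 lower on day 2 and 6 were higher and 16 lower on day 18, each versus day 0, with medians of -0.23 and -0.13. Between day 6 and day 18, 10 were higher and 5 lower, beside 18% and 18.5% of all genes. The values that follow are for day 18 versus day 0. The synaptotagmin-like protein Sytl2, a Rab27 effector, fell by 2.25 ± 0.08 (SE, adjusted p = 1.46e-15). The related proteins Mical1 and Micall2, which bind Rabs of the Rab8 and Rab13 group, fell by 2.03 ± 0.13 (SE, adjusted p = 2.49e-11) and 1.84 ± 0.14 (SE, adjusted p = 4.58e-10), and the kinase Lrrk1 by 1.55 ± 0.10 (SE, adjusted p = 5.92e-11). Plekhm1, which joins Rab7 to lysosome fusion, rose by 1.58 ± 0.10 (SE, adjusted p = 1.65e-11), and the exocyst subunit Exoc6 by 0.97 ± 0.12 (SE, adjusted p = 3.68e-07). Rilpl2, a binder of Rab8 and Rab10 group proteins, rose by 0.78 ± 0.10 (SE, adjusted p = 7.60e-07). Mical3, undetected on day 0, was at least 2.65-fold higher on day 18 (adjusted p = 1.16e-08).

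Promoters were searched for letters that many genes share. RefSeq promoters were found for 37 of the 42 members, 45 in all, since 6 genes have more than 1. GGGCGG on either strand was in 32 of the 45 (71.1%), beside 35.7% of all 32851 promoters in the table. CCAAT was in 20 (44.4%, beside 37.4%). Of the other motifs, TATAAA was in 3 (13.6% of all promoters held it), CACGTG in 5 (7.15%), TGACGTCA in 1 (1.79%), the AP-1 site (TGA and TCA parted by 1 base) in 2 (7.81%), TTGCNNAA in 4 (10.8%) and the CArG box in 1 (1.63%). The repeat of AGGTCA with 1 base between, of the kind bound by PPAR and RXR, was in none of the Rab windows and in 0.0396% of all. The 45 windows come from genes that passed the detection filter, and the 32851 were not filtered that way, so these shares compare unlike sets. Windows of 1 gene can overlap, as for Rab43 and Rab7. These counts describe the letters in these windows and say nothing of the factors.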

How the data were processed

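Total RNA of 3T3-L1 cells was measured on Illumina beadchips, 8 days with 3 replicates each. The authors deposited intensities per probe, not normalized, with a detection p-value per probe and array. GenomeStudio 2011.1 is named in the submitters' processing notes, and no source used here says how a further deposited table of normalized intensities was made. From the unnormalized table, background correction with negative controls inferred from the detection p-values, an offset of 16, quantile normalization and log2 were applied with neqc (limma 3.58.1, R 4.3.3). Of 25697 probes, 14160 were kept (detection p under 0.05 on at least 3 arrays), and the probe with the highest mean stood for each of 9558 genes. The arrays' number limits the precision. Each array had 11695 to 12531 probes detected.

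One limma fit had a mean per day, an F test of the 7 differences from day 0 and 14 comparisons of days, with 16 residual and 3.41 prior degrees of freedom. P-values were adjusted by Benjamini-Hochberg over all genes, with calls under 0.05. Where a probe was detected on no array of 1 day, the fold is a bound against the lowest detected signal. Replicate numbers paired the samples: all 84 pairs of arrays with the same number and different days correlated above 0.1 in their deviations from the day means (0.25 to 0.76), so a fit with the replicate as a block is given where it changes a result for Rab genes. The pairing comes from this check, since the labels give the numbers alone.

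Values are given array by array, for some members on part of the days, for the 10 members with the widest span of day means. The same holds for those of 16 members of adipocyte traffic that passed the detection filter, which Rab27a and Rab27b did not. Lists are named by their up to 4 widest called changes. Members and lists were chosen with earlier results of these data known. Promoters are RefSeq's, build GRCm38.p6. Alternatives were the authors' normalized table, other background, scaling, filter, probe and prior settings, and the omission of each array.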

Additional observations from a re-analysis of the deposited data

How the results depend on the processing

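Of the lists, only the count of genes that changed over the course was followed through the omissions and other settings. Calls of single genes from the lists were therefore not tested in these ways. Single Rab genes were followed through the omissions and other settings in part of the comparisons only. These set days 2, 6 and 18 against day 0, day 4 against day 2, and day 6 against both days 4 and 18. Elsewhere, as for day 4 against day 0, these checks gave counts of members, and only the block followed single genes. Calls of single genes printed for those comparisons were therefore not tested by omission. Of the 252 Rab gene comparisons followed, 120 were called. Leaving out each array in turn kept 95 of the 120 calls in all 24 omissions and lost 25 in at least 1. The losses of calls printed above stand beside them, and the calls not printed are Rab7, Rab11b and Rab24 for day 18 versus day 6, Rab24 and Rab29 for day 6 versus day 4, Rab40b and Rab40c for day 4 versus day 2 and Rab23 for day 2 versus day 0. In these omissions the count of higher members on day 2 versus day 0 was 2 to 5 (2 without day 0 replicate 3 or day 2 replicate 3), the calls on day 8 versus day 6 were 4 to 8 (4 without day 6 replicate 3 or day 8 replicate 3), and those on day 10 versus day 8 were 1 to 2 (2 without day 10 replicate 1). The replicate block added 32 calls and ended none. It gave 7 higher members for day 2 versus day 0, 23 calls with 12 higher for day 4 versus day 2, and 14 with 5 lower for day 6 versus day 4. It gave 13 calls for day 8 versus day 6, 5 for day 10 versus day 8, 2 for day 14 versus day 10, and 13 higher for day 18 versus day 6. Median scaling ended 13 calls and added 5. It left 3 members higher for day 18 versus day 0, beside 1849 of all 9558 genes. For day 18 versus day 6 it left 5 higher, beside 1477. For day 10 versus day 8, 2 members were called with no background correction, with the mean of all passed probes and with the probe of lowest F p. For day 14 versus day 10, 1 was called with no background correction and with no detection filter. The mean of all passed probes turned Rab6a for day 6 versus day 0 (-0.12) and Rab7 for day 6 (0.19) and day 18 (0.21) versus day 0. The probe of lowest F p turned Rab6a for day 6 (-0.52) and day 18 (-0.62) and Rab9 for day 6 (0.42) versus day 0. These turns follow from averaging or replacing probes that disagree, and for the other changes the cause was not tested. The authors' normalized table kept 250 of the 252 and ended 2 calls. Signal over background limits Rab7b, Rab36, Rab20, Rab33a and Rab39b, which were not detected on all arrays.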

Other observations

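Other small GTPases of vesicle traffic give a frame for the Rab genes. Of 13 Arf, Arl and Sar genes tested, 2 were higher and 6 lower on day 18 than on day 0, beside 23.2% and 34% of all genes, with a median difference of -0.16, beside -0.08 for all genes. Arl2, known from tubulin folding and mitochondria, and Sar1b, which builds the COPII coat of vesicles leaving the endoplasmic reticulum, were the 2 that were higher, by 1.15 and 0.44 (log2). Arf3, a Golgi Arf, was at -0.86 and Arf6, an Arf of the plasma membrane and endosomes, at -0.68. Between day 6 and day 18, 4 of the 13 were lower, beside 18.5% of all genes, Sar1a (-0.53) and Sar1b (-0.31) among them.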
